A study of Mus musculus with 36 samples.

Results

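The cytosolic sulfotransferases described here are 8 mouse genes, Sult1a1, Sult1b1, Sult1c2, Sult1d1, Sult1e1, Sult2a2, Sult3a1 and Sult5a1, out of 18193 genes that the arrays name. They were set by gene symbol, with earlier results of these data known. In all, 9 probe sets (groups of short probes against 1 transcript) carried these symbols. Sult1d1 had 2 probe sets and the other genes had 1 each. Of the 8 genes, 7 passed the filter on low signals and were tested, while Sult1e1 did not pass it. The RefSeq gene table (GRCm38.p6) lists 21 mouse Sult genes, and of the other cytosolic ones 5 had a probe set here and 1, Sult2a8, passed the filter.

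Liver RNA from 36 female mice was measured on Affymetrix arrays, 1 array per mouse and 4 mice in each of 9 groups. The mice were 6 to 8 weeks old and had been fasted for 4 to 5 hours. The mutant groups were heterozygotes of Pax3Sp2H (called Pax3 here), Apobtm1Unc (Apob), Lrp6Cd (Cd-Het) and Vangl2Lp (Lp-Het), and curly tail mice (ct), all of them lines used as models of neural tube defects. The ct mice came from a randomly bred closed colony in which each mouse was taken as a ct/ct homozygote. The wild-type groups were C57BL/6J (B6), which served both Pax3 and Apob, wild-type mice of the Lrp6Cd strain (Cd-WT), CBA/CaJ (CBA) for ct, and wild-type mice of the Vangl2Lp strain (Lp-WT). B6 and CBA are stocks of their own, and the labels do not give the background strain of the Pax3 and Apob lines, so stock and mutation cannot be told apart in those comparisons. The labels class Pax3 and Cd-Het as responsive to dietary folic acid and Apob, ct and Lp-Het as resistant, and name no transgene and no treatment other than the fast.

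Cytosolic sulfotransferases transfer a sulfonate group from the donor PAPS to small molecules such as phenols, catecholamines, thyroid hormone, steroids and bile acids, which makes most of them more water soluble and easier to excrete. The Sult1 enzymes mainly take phenols and amines, and the Sult2 enzymes take hydroxysteroids and bile acids. In mouse liver several of the genes, Sult2a2 and Sult3a1 among them, are known to be expressed more in females than in males.

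The tissue and RNA checks bear on all values below. Hepatocyte markers such as Alb and Ttr were high on every array, with a lowest signal of 34620 for Alb. RNA integrity was read from the GAPDH control probes as the 3'/5' ratio, which rises when transcripts are broken. On 34 arrays this ratio was 0.729 to 0.956. The exceptions were CBA replicate 4, with 52.5, and ct replicate 3, with 1.72. Of the mutated genes, Apob fell in Apob livers (-1.82 on the log2 scale, limma adjusted p = 0.0333). Lrp6, Vangl2 and Pax3 did not pass the test in their own lines, and Grhl3, the gene behind curly tail, was below the filter. Values are the authors' MAS5 signals, on a linear scale, and differences are mutant minus control on the scale of log2(signal + 23.1) with the standard error of a limma fit to all 36 arrays. A gene was called at an adjusted p below 0.05 over the 13188 genes tested, and the p-values measure the spread between mice. In whole liver RNA, fewer cells of a type and less RNA per cell cannot be told apart. A probe set's level is not set against that of another probe set.

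Sult2a2 and Sult3a1 stood apart from the other sulfotransferases in how far their signals ranged. The highest group mean was 91.2 times the lowest for Sult2a2 and 96.9 times the lowest for Sult3a1, against 1.46 to 2.51 times for the other 5 tested members. Within groups, the standard deviation of log2 values was 1.12 for Sult2a2 and 1.75 for Sult3a1. The median gene had 0.361, and 99.8% and 99.98% of the genes tested varied less between mice than Sult2a2 and Sult3a1. Sult1a1 was at the other end, with 0.251, which 15.2% of genes undercut.

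Sult2a2 (NCBI gene 100043194) encodes a sulfotransferase of hydroxysteroids and bile acids. In Apob livers its signals were 803, 541, 126 and 135. In Pax3 livers they were 18502, 6257, 5847 and 12679. In the B6 livers that served both lines they were 3480, 8662, 7641 and 6906. Every Apob mouse was lower than every Pax3 and every B6 mouse, while Pax3 and B6 mice overlapped. Sult2a2 averaged 401 ± 331 in Apob livers and 6672 ± 2247 in B6 livers (SD, n = 4 each), a log2 difference of -4.29 ± 0.72 (19.6-fold lower, limma adjusted p = 0.00176). The call held in each of 21 alternative fits, with differences from -4.74 to -3.92. In Pax3 livers the mean was 10822 ± 6001, and the log2 difference from B6 was 0.61 ± 0.72 (limma adjusted p = 0.999). Tested directly, Apob livers were lower than Pax3 livers by a log2 difference of -4.90 ± 0.72 (limma adjusted p = 0.000256).

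**Figure D1:**
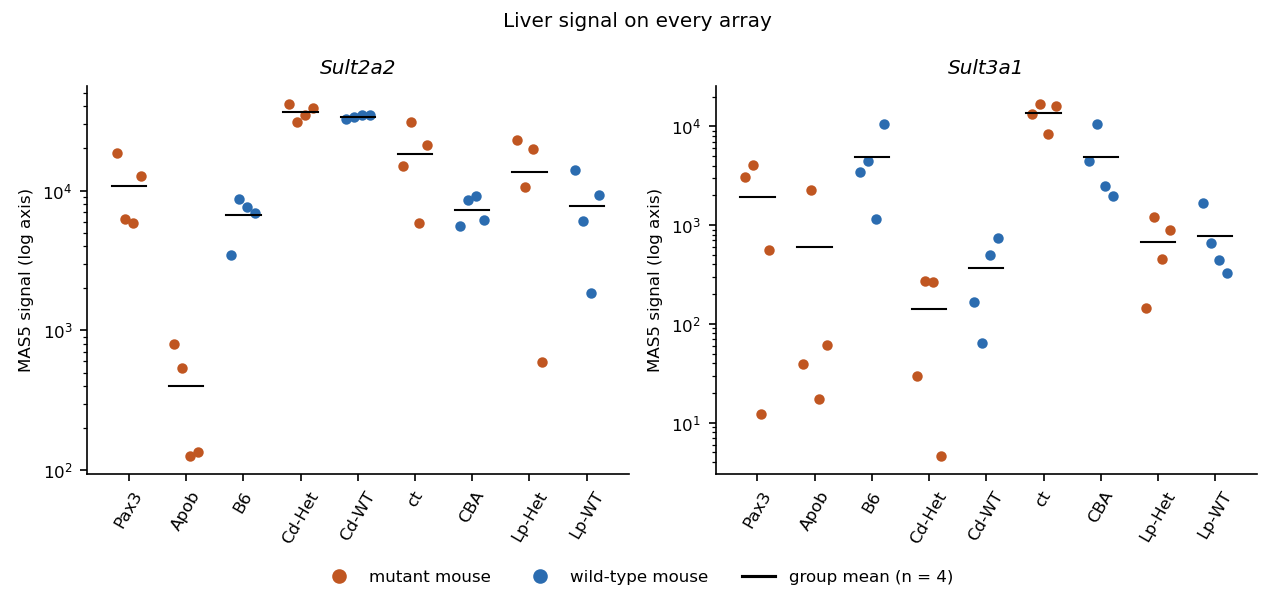
MAS5 signal (log axis) of Sult2a2 and Sult3a1 on each of the 36 arrays, by group. Points are single mice, orange for mutant and blue for wild-type groups, and horizontal lines are arithmetic group means of 4 mice. All 4 Apob mice lie at or below 803 for Sult2a2, and the only other mouse that low is Lp-Het replicate 4 at 594, whereas Sult3a1 spreads over more than 1 order of magnitude within several groups.

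Across the 9 groups, Sult2a2 was highest in the Lrp6Cd stock. It averaged 36632 ± 4779 in Cd-Het and 33747 ± 1113 in Cd-WT livers, and these mice, from 30853 to 41772, overlapped each other. Next came ct (18275 ± 10655), Lp-Het (13504 ± 10056), Pax3, Lp-WT (7805 ± 5136), CBA (7311 ± 1737) and B6, and Apob was the lowest. Cd-WT mice did not overlap with ct mice, the next group down, nor B6 mice with Apob mice, and every other pair of neighbours in this order overlapped. In ct livers the signals were 14854, 31129, 5840 and 21278, against 5538, 8487, 9083 and 6136 in CBA livers (log2 difference 1.11 ± 0.72, limma adjusted p = 0.347). The Lp-Het mice gave 22851, 10648, 19922 and 594, and the Lp-WT mice 14018, 6062, 1862 and 9278 (0.25 ± 0.72, limma adjusted p = 0.975). One Lp-Het mouse was thus as low as the Apob mice while the other three were not. The Cd-Het and Cd-WT livers differed by 0.11 ± 0.72 (limma adjusted p = 1.00).

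Whether the mutant minus control difference varied among the 5 lines was tested with a moderated F test. Sult2a2 passed it (limma adjusted p = 0.000281, against 2.46% of all genes called). Since stock and mutation cannot be told apart for Pax3, Apob and ct, the test is not one of the mutations alone. A similar test among the 4 wild-type groups also passed for Sult2a2 (limma adjusted p = 0.0393) and for Sult3a1 (limma adjusted p = 0.0344), in a comparison where 10.7% of genes were called. These last calls were lost in 9 and 8 of 47 alternative fits, with adjusted p up to 0.0956 and 0.0991. Leaving out B6 replicate 1 or 4, Cd-WT replicate 1 or 2 or Lp-WT replicate 3 ended both calls. Leaving out Cd-WT replicate 3 or 4 or Lp-WT replicate 2 ended that of Sult2a2 alone, and leaving out B6 replicate 2 or CBA replicate 2 ended that of Sult3a1 alone. Stock and group cannot be told apart there.

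Sult3a1 (NCBI gene 57430) encodes an enzyme known in the mouse for the sulfation of amines. Its signals were 38.9, 2257, 17.2 and 61.1 in Apob livers. They were 3076, 4029, 12.2 and 565 in Pax3 livers. They were 3486, 4404, 1165 and 10589 in B6 livers. Low and high mice occurred in both mutant groups, and 1 Apob mouse lay within the range of the B6 mice. Signals under 61.7, the level of the filter, are close to background, and there the offset added before taking log2 sets part of the size of a difference. Sult3a1 averaged 593 ± 1109 in Apob livers and 4911 ± 4023 in B6 livers (SD, n = 4 each), a log2 difference of -4.66 ± 1.12 (25.3-fold lower, limma adjusted p = 0.0416). The call was lost in 10 of 21 alternative fits, with adjusted p from 0.00304 to 0.201. Leaving out B6 replicate 1, 2, 3 or 4 or Apob replicate 1, 3 or 4 ended it, and leaving out Apob replicate 2 moved the difference to -5.98. In Pax3 livers the mean was 1921 ± 1937 and the log2 difference from B6 was -2.39 ± 1.12 (limma adjusted p = 0.929). The 2 mutant groups did not pass a direct test against each other (Apob minus Pax3 -2.27 ± 1.12, limma adjusted p = 0.382).

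In the order of group means, ct was the highest for Sult3a1 (13746 ± 3911). B6 and CBA (4859 ± 3876) followed, then Pax3, Lp-WT (777 ± 616), Lp-Het (671 ± 464), Apob, Cd-WT (369 ± 312) and Cd-Het (142 ± 145). Each pair of neighbours in this order overlapped. In ct livers the signals were 13476, 16962, 8328 and 16219, against 4501, 10441, 2509 and 1985 in CBA livers (1.75 ± 1.12, limma adjusted p = 0.340). The Cd-Het mice gave 29.4, 270, 263 and 4.55, against 166, 63.8, 503 and 743 in Cd-WT mice (-1.44 ± 1.12, limma adjusted p = 1.00). The Lp-Het mice gave 144, 1195, 457 and 888, against 1677, 661, 447 and 325 in Lp-WT mice (-0.27 ± 1.12, limma adjusted p = 0.983). The Lrp6Cd stock was thus the highest group pair for Sult2a2 and the lowest for Sult3a1.

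The sequences upstream of the most variable and the least variable member are shown to set both genes in the genome. They are from RefSeq (GRCm38.p6), run 5′ to 3′ on the gene's own strand, and cover 250 bases before and 50 bases after a RefSeq transcription start. That of Sult3a1 is chr10:33857472-33857771 on the plus strand, and that of Sult1a1 is chr7:126676369-126676668 on the minus strand. Capitals mark matches to 4 motifs searched on both strands: the TATA box TATAAA, the nuclear receptor motif AGGTCA, the STAT motif TTCNNNGAA and the HNF1 motif GTTAAT.
Sult3a1: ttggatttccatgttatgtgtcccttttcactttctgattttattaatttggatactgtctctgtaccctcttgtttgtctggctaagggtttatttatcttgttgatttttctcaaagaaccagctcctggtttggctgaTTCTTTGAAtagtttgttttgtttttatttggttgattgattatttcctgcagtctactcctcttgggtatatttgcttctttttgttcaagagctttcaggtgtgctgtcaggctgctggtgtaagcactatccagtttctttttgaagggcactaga
Sult1a1: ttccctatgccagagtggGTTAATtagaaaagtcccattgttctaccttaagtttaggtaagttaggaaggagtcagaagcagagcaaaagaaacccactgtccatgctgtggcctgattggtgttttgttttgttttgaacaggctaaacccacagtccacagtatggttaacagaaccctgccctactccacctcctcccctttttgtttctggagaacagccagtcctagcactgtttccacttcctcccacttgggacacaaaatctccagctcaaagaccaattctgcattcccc
The capitals in Sult3a1 are 1 match to the STAT motif, 109 bases before the start, and the capitals in Sult1a1 are 1 match to the HNF1 motif. Of 32851 promoters of this length in the table, 8.3% held the STAT motif, 7.1% the HNF1 motif, 13.6% the TATA box and 16.3% the nuclear receptor motif. Promoters of 7 of the 8 members were found in the table, and that of Sult2a2 was not among them. Of the other 5 members, Sult1b1 and Sult1e1 held the nuclear receptor motif, and Sult1c2 and Sult5a1 held none of the 4 motifs. For Sult1b1 the motif was in the promoter at chr5:87538146-87538445 and not in that at chr5:87536173-87536472. Sult1d1 held the HNF1 motif before the start. It also matched the TATA box letters, but after the start and on the opposite strand.

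Across the family, few passed the test in any line. In Apob livers 2 of the 7 tested members were called, both lower, where 0.538% of all genes were called and 0.303% were called lower. One member, Sult2a2, had groups that did not overlap, against 9.39% of all genes, and 3 members had an unadjusted p below 0.05, against 10.9%. The median log2 difference of the 7 was 0.19, against 0.02 for all genes, since 4 members had positive differences. In Pax3 livers 0 of 7 were called by limma, as for all genes (0%), with 2 members at an unadjusted p below 0.05 (5.32% of genes). No member's groups failed to overlap there, against 5.38% of genes. The limma counts were also 0 of 7 in Cd-Het livers (0% of genes) and in Lp-Het livers (0.0303% of genes). In both lines 0 members had an unadjusted p below 0.05, against 2.09% of genes in Cd-Het and 7.07% in Lp-Het livers. Groups overlapped for every member in both, where 3.07% and 5.72% of genes did not overlap. In ct livers 1 of 7 was called, lower, where 6.65% of genes were called, 3.4% higher and 3.25% lower. That member was also the single one at an unadjusted p below 0.05, against 24.1% of genes.

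**Figure D2:**
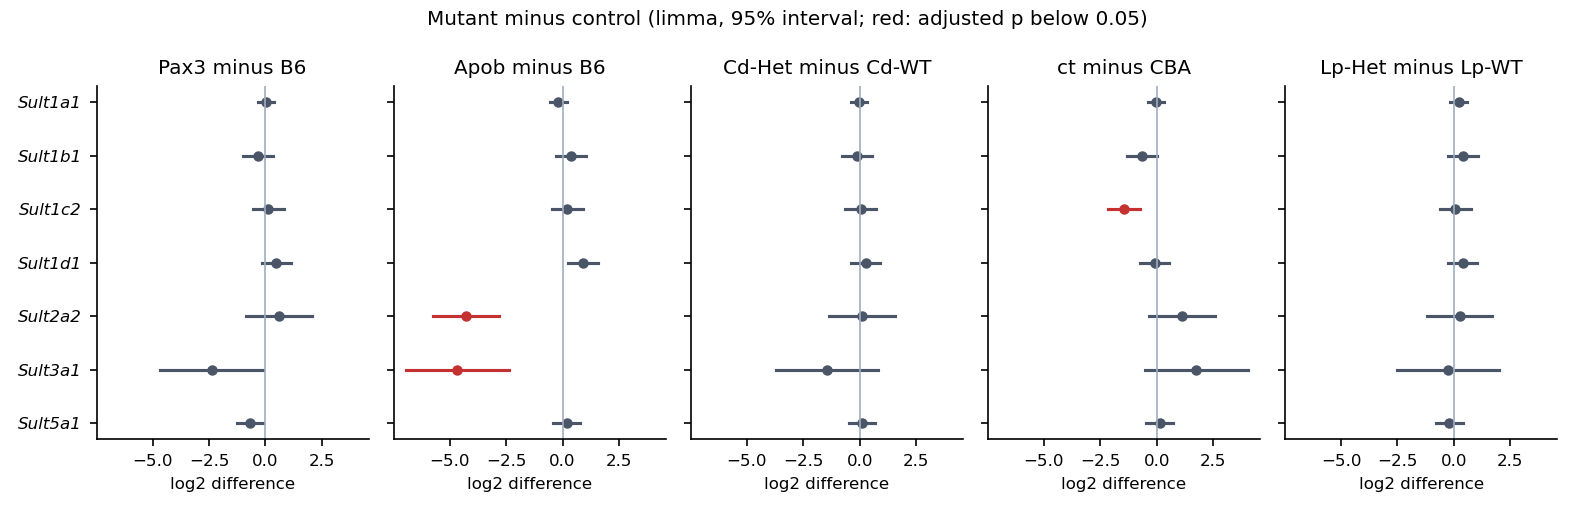
Log2 difference (mutant minus control) of the 7 tested members in each of the 5 lines, with 95% intervals from the limma fit, each row 1 gene. Red marks an adjusted p below 0.05: Sult2a2 and Sult3a1 in Apob minus B6 and Sult1c2 in ct minus CBA.

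Sult1c2 (NCBI gene 69083), a sulfotransferase known from studies of phenols and hydroxylated aryl amines, was the member called in ct livers. Its signals were 561, 610, 114 and 642 in ct livers, against 951, 915, 1054 and 1922 in CBA livers. Every ct mouse was lower than every CBA mouse, and groups did not overlap, in either direction, for 6.92% of all genes. The log2 difference was -1.46 ± 0.34 (limma adjusted p = 0.00888). The lowest ct value and the highest CBA value belonged to ct replicate 3 and CBA replicate 4, the 2 arrays with raised 3'/5' ratios. Without both arrays the log2 difference was -0.67 (limma adjusted p = 0.226). Without ct replicate 3 alone it was -0.91 (limma adjusted p = 0.0642), and without CBA replicate 4 alone it was -1.21 (limma adjusted p = 0.0503). Outside ct, the lowest group mean was the 746 ± 342 of B6 livers. Apob livers averaged 840 ± 239 and Pax3 livers 790 ± 216, with single mice at 955, 1110, 576 and 717 in Apob and at 1087, 691, 587 and 795 in Pax3. Both groups overlapped with the B6 mice, which gave 515, 607, 1255 and 606.

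The ct livers also differed from CBA livers in markers of other cells. Of 7 Kupffer cell markers 4 were called higher (Lyz2, Marco, Clec4f and Cd5l, by 1.24 to 2.79 on the log2 scale), where 3.4% of all genes were called higher. The summed signal of all 7 ran from 8966 to 68030 in ct livers and overlapped with the 7285 to 11675 of CBA livers. The stellate cell marker Dcn (1.11), of 5 tested, was called higher as well. So were the pancreas marker Cela2a (2.44) and the intestine marker Apoa4 (1.01), which liver expresses too, each of 2 tested. The summed signal of the 5 stellate markers was 9803 to 16883 in ct and 4708 to 9231 in CBA livers, without overlap. That of 3 pancreas markers ran from 219 to 1624 in ct livers, around the 368 to 487 of CBA livers. Marker calls were not followed in the alternative fits. Over all genes, 877 calls in ct minus CBA became 236 without the 2 arrays of raised 3'/5' ratio. The summed signal of the 6 hepatocyte markers measured overlapped, at 211596 to 366090 in ct livers and 214588 to 310530 in CBA livers. Of the 6, 0 passed the limma test after adjustment and 2 had an unadjusted p below 0.05, against 24.1% of all genes. The part of these values and of RNA quality in the Sult1c2 difference was not tested. ct replicate 3 was the lowest of its group for 5 of the 7 members, Sult1b1, Sult1c2, Sult1d1, Sult2a2 and Sult3a1.

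Sult1d1 (NCBI gene 53315), a sulfotransferase of catecholamines in the mouse, was measured by 2 probe sets. With the brighter one the signals were 16397, 12318, 14476 and 8979 in Apob livers. They were 15013, 9616, 6009 and 9113 in Pax3 livers, and 6386, 6105, 5395 and 10042 in B6 livers. A single B6 mouse reached into the range of the Apob mice, and Pax3 mice spanned both. The log2 difference from B6 was 0.91 ± 0.32 in Apob livers (limma adjusted p = 0.219) and 0.47 ± 0.32 in Pax3 livers (limma adjusted p = 0.999). With array weights the Apob difference was called (0.93, limma adjusted p = 0.0199), and in the other 20 alternative fits it was not. The second probe set gave 0.51 ± 0.34 in Apob livers (limma adjusted p = 0.581) from signals of 6323, 3049, 4625 and 2650, against 2230, 2541, 2617 and 3789 in B6 livers. On this probe set the Pax3 mice gave 5831, 3484, 1846 and 4294. Over all groups the brighter probe set averaged between 6982 ± 2082 in B6 and 13455 ± 7602 in CBA livers, and the second between 2794 ± 684 and 5534 ± 3393 in the same groups.

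Sult1a1 (NCBI gene 20887), the main phenol sulfotransferase of liver, passed no test. Its signals were 19766, 23145, 17988 and 19241 in Apob livers and 25819, 22866, 22929 and 21197 in Pax3 livers. B6 livers gave 18676, 20628, 27979 and 24770, and all 3 groups overlapped. Group means ran from 20035 ± 2203 in Apob to 29168 ± 11508 in CBA livers, each neighbour in the order overlapping with the next. The 5 log2 differences from controls lay between -0.19 and 0.21, each with a standard error of 0.18. In Apob livers the 95% interval was -0.56 to 0.18, and in Pax3 livers it was -0.34 to 0.39.

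Sult1b1 (NCBI gene 56362), which sulfates phenols and thyroid hormone, gave 1346, 1101, 1056 and 1025 in Apob livers. Pax3 livers gave 1290, 1026, 458 and 355, and B6 livers 724, 865, 779 and 1154. Of the Pax3 mice, a pair lay within or above the range of the B6 mice and a pair below every B6 mouse. The log2 differences from B6 were 0.37 ± 0.32 in Apob (limma adjusted p = 0.770) and -0.33 ± 0.32 in Pax3 livers (limma adjusted p = 0.999). The direct difference, Apob minus Pax3, was 0.70 ± 0.32 (limma adjusted p = 0.340). In ct livers it was -0.65 ± 0.32 (limma adjusted p = 0.211), with ct replicate 3 at 401 and the other ct mice between 1147 and 2014, against 1231 to 1896 in CBA livers.

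Sult5a1 (NCBI gene 57429) gave 460, 661, 487 and 445 in Apob livers and 403, 273, 174 and 262 in Pax3 livers. B6 livers gave 488, 388, 434 and 463. All Apob mice were above all Pax3 mice, and a single Pax3 mouse lay within the B6 range. The Pax3 group mean of 278 ± 94.2 was the lowest of the 9 groups, and the log2 difference from B6 was -0.68 ± 0.29 (limma adjusted p = 0.832, unadjusted p = 0.0250). Apob minus Pax3 was 0.87 ± 0.29 (limma adjusted p = 0.152), and 1 of 7 members was called in that comparison, where 1.18% of genes were called, 0.463% higher and 0.713% lower. At an unadjusted p below 0.05 there were 4 members, against 13% of genes. With the 2 arrays of raised 3'/5' ratio left out, or with array weights, Sult5a1 was called as well (adjusted p = 0.0463 in both). Groups failed to overlap for 2 members, Sult2a2 and Sult5a1, in Apob minus Pax3, against 11% of all genes. The Apob and Pax3 comparisons with B6 share the same 4 control mice.

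Sult1e1 (NCBI gene 20860), the estrogen sulfotransferase, was near background. Its signals were 27.4, 69.4, 61.5 and 253 in Apob livers, 249, 9.48, 24.4 and 57.7 in Pax3 livers, and 36.0, 19.0, 11.8 and 31.5 in B6 livers. At least 1 mouse of each mutant group, and 1 CBA mouse at 108, stood above the filter level of 61.7, up to 289 in ct replicate 3, while group medians lay between 13.5 in CBA and 65.5 in Apob livers. No test was made, and these levels do not show that the transcript was absent.

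**Figure D3:**
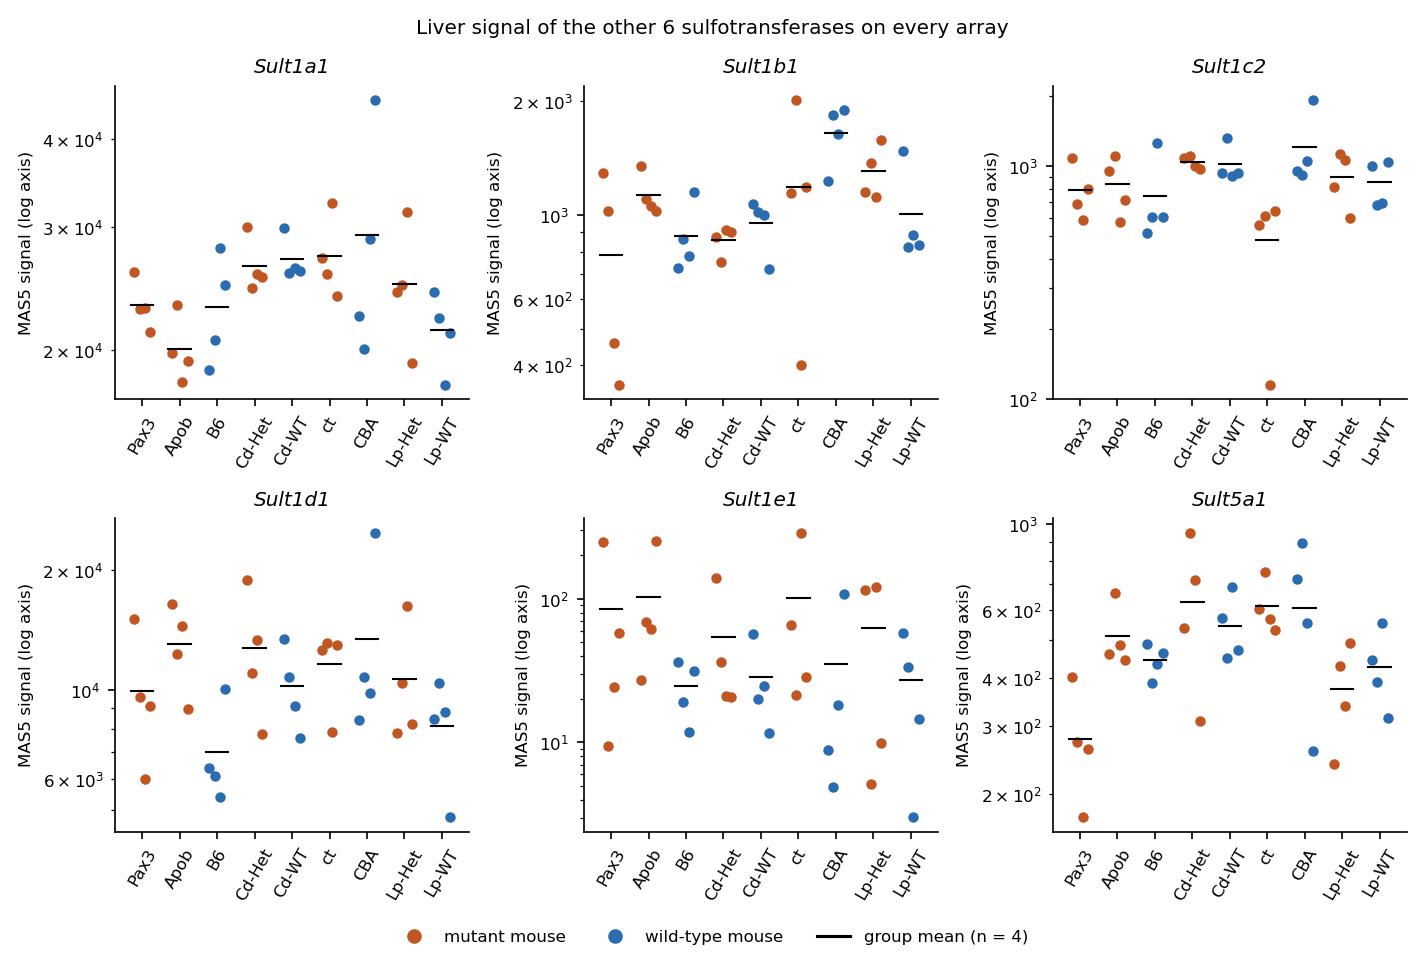
MAS5 signal (log axis) of the other 6 sulfotransferases on each of the 36 arrays, by group, with mutant mice in orange, wild-type mice in blue and arithmetic means of 4 mice as horizontal lines. Each mutant group overlaps with its own control except ct for Sult1c2, and ct replicate 3 is low for Sult1b1 and Sult1c2, as are a pair of Pax3 mice for Sult1b1.

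Correlations between members across mice ranged widely. Over the 34 arrays without CBA replicate 4 and ct replicate 3, Pearson's r of log2 values was 0.13 between Sult2a2 and Sult3a1 and 0.72 between Sult1a1 and Sult2a2 (0.12 and 0.53 over all 36). These are descriptions over mice that share groups and stocks. The gene most like Sult2a2 was Slc22a27, which encodes a liver organic anion transporter (r = 0.84 over 36 arrays and 0.87 over 34). It averaged 521 ± 315 in Apob livers and 1550 ± 412 in Pax3 livers, against 1688 ± 500 in B6 livers, and was highest in Cd-Het livers at 3137 ± 136. Cyp3a16 (r = 0.77) and Gsta4 (r = 0.74) came next over 36 arrays. The gene most like Sult3a1 was Rsph4a (r = 0.82 over 36 and over 34 arrays), which encodes a radial spoke protein of motile cilia. In the RefSeq table Rsph4a is the next protein-coding gene after Sult3a1 on chromosome 10. Its signals were low, at 35.9, 115, 3.99 and 48.4 in Apob livers, 171, 167, 16.5 and 38.4 in Pax3 livers, and 175, 165, 69.8 and 176 in B6 livers. The lowest Apob, Pax3 and B6 mice for Rsph4a were the lowest for Sult3a1 too. Fabp5 (r = 0.72) and Zfp322a (r = 0.71) came next for Sult3a1 over 36 arrays. For each other tested member the most similar gene changed with the arrays used. Over 36 arrays it was Wtap for Sult1a1 (r = 0.71), Acyp1 for Sult1b1 (0.82) and Ugt2a3 for Sult1c2 (0.80). For Sult1d1 it was Mterf3 (0.81), and for Sult5a1 it was Cela1 (0.71). Over the 34 arrays, in the same order of members, Gid8 (0.67), Bhmt (0.82), Rnf115 (0.75), Plpbp (0.80) and Ugt2b1 (0.78) came first instead.

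Genes known to be expressed more in female than in male mouse liver were set beside Sult2a2 and Sult3a1 because both belong to that class. Of 8 such genes tested, none of them a sulfotransferase, 8 had negative differences in Apob livers and 0 were called after limma. Of the 8, 5 had an unadjusted p below 0.05, against 10.9% of all genes. The median was -1.45 (0.02 for all genes). Cyp3a16 gave -3.29 ± 0.83 (limma adjusted p = 0.0596) and Cyp2b13 gave -2.59 ± 0.85 (limma adjusted p = 0.176). In Pax3 livers 7 of the 8 were negative, with a median of -0.56. Relative to B6, the mean log2 value of the 8 genes was -1.65, -0.31, -2.95 and -1.46 on the Apob arrays 1 to 4, and 0.12, 0.02, -2.04 and -0.40 on the Pax3 arrays. The Pax3 and Apob arrays with the lowest such mean, replicate 3 in both groups, were also those with the lowest Sult3a1. Apob replicate 2 had the highest mean and the highest Sult3a1 of its group, while its Sult2a2 signal of 541 was low like those of the other Apob mice.

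Of 5 male-biased genes tested, 5 had positive differences in Apob livers and 0 were called after limma, with a median of 1.21. Of the 5, 3 had an unadjusted p below 0.05, against 10.9% of all genes. In Pax3 livers 5 of 5 were negative against B6, with a median of -0.82 and 0 called. Of these, 2 had an unadjusted p below 0.05, against 5.32% of all genes. The direct comparison of Apob with Pax3 thus holds differences of both groups from B6. In Apob minus Pax3, 4 of the 5 were called higher, where 0.463% of all genes were. Hsd3b5, a steroid dehydrogenase, gave 4.25 ± 0.95 (limma adjusted p = 0.0167). Slco1a1, an organic anion carrier, gave 3.80 ± 0.73 (limma adjusted p = 0.00639). Elovl3, a fatty acid elongase, gave 2.03 ± 0.47 and Cyp7b1, an oxysterol hydroxylase, gave 1.11 ± 0.28 (limma adjusted p = 0.0207 and 0.0312). Leaving out Pax3 replicate 3 or Apob replicate 3 ended the calls of Hsd3b5, Elovl3 and Cyp7b1, and that of Slco1a1 held in all 21 alternative fits. Elovl3 also lost its call without Pax3 replicate 4 and with the compared arrays alone. Cyp7b1 also lost its call without Pax3 replicate 2 or 4 or Apob replicate 1, with median centring and with the compared arrays alone. Pax3 replicate 3 was low in both classes, at -2.04 for the female-biased and -2.33 for the male-biased genes, and it was the lowest of its group for 5 of 7 sulfotransferases. In ct livers 5 of the 8 female-biased genes had negative differences, with a median of -0.62. The 1 called, Cyp17a1, a steroid hydroxylase, was higher (1.40 ± 0.43, limma adjusted p = 0.0415), where 3.4% of all genes were called higher. That call was lost in 10 of 20 alternative fits (adjusted p up to 0.267). Single mice whose removal ended it were ct replicates 2 and 3 and CBA replicates 2 and 4, and it was also lost with quantile normalization, median centring, no filter, array weights, the compared arrays alone and both arrays of raised 3'/5' ratio left out. On the Apob arrays the male-biased mean was 0.95, 0.43, 2.60 and 1.36. These lists were described beside the sulfotransferases, and their part in the Sult2a2 and Sult3a1 differences was not tested.

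**Figure D4:**
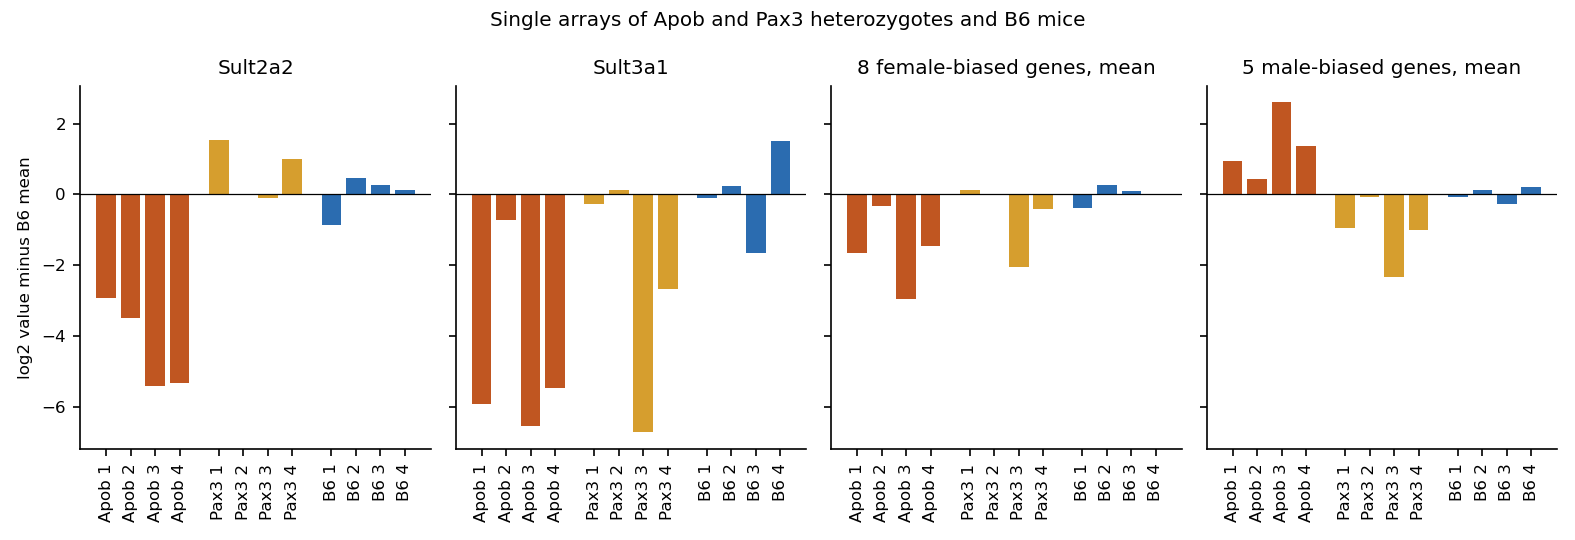
Log2 value relative to the B6 mean on each array of Apob (orange), Pax3 (yellow) and B6 mice (blue), for Sult2a2, Sult3a1 and the means of 8 female-biased and 5 male-biased genes. Sult2a2 is low on all 4 Apob arrays, while Sult3a1 is low on Apob 1, 3 and 4 and on Pax3 3 and 4, and the female-biased mean is lowest on Apob 3 and Pax3 3.

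A close relative behaved otherwise. Sult2a8, a bile acid sulfotransferase of the same subfamily, gave 29999, 23714, 32883 and 24077 in Apob livers. Pax3 livers gave 12177, 12842, 1354 and 7478, and B6 livers gave 15908, 14537, 11959 and 23156. Every Apob mouse was higher than every Pax3 and B6 mouse, the opposite order to Sult2a2. Groups did not overlap for 9.39% of all genes in Apob minus B6 and 11% in Apob minus Pax3, where 0.463% were called higher. The log2 difference from B6 was 0.78 ± 0.47 in Apob livers (limma adjusted p = 0.591) and -1.33 ± 0.47 in Pax3 livers (limma adjusted p = 0.804). Apob minus Pax3 was 2.11 ± 0.47 (limma adjusted p = 0.0167). Without Pax3 replicate 3 that difference was 1.38, and the call was lost without it, without Apob replicate 1 or 3, or when the compared arrays were fitted alone (adjusted p up to 0.111). Of 8 Sult2a genes in the RefSeq table, Sult2a2 and Sult2a8 alone had a probe set named here. Whether the Sult2a2 probes also bind transcripts of the other Sult2a genes was not tested. Sult2b1, Sult1c1, Sult4a1 and Sult6b1 had probe sets below the filter.

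The genes that supply sulfate and PAPS mostly did not pass the test. Of 9 tested, 0 were called by limma in any of the 5 lines, with medians from -0.04 to 0.08. In ct livers 5 of the 9 had an unadjusted p below 0.05, against 24.1% of all genes. In Apob livers 2 did, in opposite directions, against 10.9% of all genes. These were Bpnt2, which was lower, and Bpnt1, which was higher (0.45 ± 0.19, limma adjusted p = 0.336). Papss2, the main PAPS synthase of liver, averaged 5361 ± 680 in Apob livers and 7415 ± 1055 in B6 livers, without overlap (-0.46 ± 0.25, limma adjusted p = 0.530). Bpnt2, a phosphatase of the Golgi that breaks down the by-product PAP, gave 2185, 1694, 1793 and 1670 in Apob livers. Pax3 livers gave 3939, 4152, 4318 and 4865, and B6 livers 2735, 4424, 4544 and 2860. Every Apob mouse was lower than every mouse of the other 2 groups. Groups did not overlap for 9.39% of all genes in Apob minus B6 and 11% in Apob minus Pax3, where 0.713% were called lower. Bpnt2 was called in Apob minus Pax3 (-1.23 ± 0.27, limma adjusted p = 0.0147), in all 21 alternative fits too, and not in Apob minus B6 (-0.95 ± 0.27, limma adjusted p = 0.107). In Apob minus B6 it was called in 4 of 21 alternative fits, namely with array weights, with the compared arrays alone, without both arrays of raised 3'/5' ratio and without CBA replicate 4 (adjusted p from 0.000101 to 0.0315).

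Among other genes of sulfation, 7 Golgi sulfotransferases and 6 sulfatases were tested, and 0 were called by limma in each of the 5 lines and in Apob minus Pax3. An unadjusted p below 0.05 was reached by 1 sulfatase in Apob minus B6 (10.9% of all genes) and 1 in Apob minus Pax3 (13%). No Golgi sulfotransferase reached it in any comparison. Of 19 nuclear receptors and other regulators of sulfotransferase genes, 0 were called in Apob livers after limma, and the median was -0.06. There 1 of the 19 had an unadjusted p below 0.05, against 10.9% of all genes. In ct livers 1 of the 19 was called higher and 1 lower, where 3.4% and 3.25% of all genes were. Nr1h3, the oxysterol receptor LXR alpha, was higher (0.84 ± 0.24, limma adjusted p = 0.0346). Nr3c1, the glucocorticoid receptor, was lower (-0.91 ± 0.27, limma adjusted p = 0.0397). Neither call held without ct replicate 2, ct replicate 3 or CBA replicate 4, left out singly, and without both arrays of raised 3'/5' ratio the differences were 0.37 and -0.33. Both calls were also lost with array weights and with the compared arrays alone, and that of Nr3c1 with median centring and no filter.

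Targets of the xenobiotic receptors CAR and PXR, which also act on sulfotransferase genes, were set beside them. In Apob livers 7 of 9 had negative differences, with a median of -0.57. Of the 9, 5 had an unadjusted p below 0.05, against 10.9% of all genes. The 2 positive genes were Aldh1a1 (0.80 ± 0.22, limma adjusted p = 0.0905) and Cyp3a13 (0.53 ± 0.25, limma adjusted p = 0.432). Both were higher in every Apob mouse than in any B6 mouse, where groups did not overlap for 9.39% of all genes. Slco1a4, an organic anion carrier, was the 1 gene called, and lower, where 0.303% of all genes were called lower. It gave 1613, 1032, 705 and 1238 in Apob livers, against 2884, 3769, 5887 and 2276 in B6 livers, with no overlap (-1.64 ± 0.39, limma adjusted p = 0.0418). Slco1a4 lost this call in 11 of 21 alternative fits, including each that left out 1 Apob mouse or B6 replicate 1, 2 or 3 (adjusted p from 0.000158 to 0.225 over all 21). The others were median centring, no filter, no variance trend and the replicate block (adjusted p = 0.0600 with the block). In Apob minus Pax3, Cyp2b10 (-1.41 ± 0.31), Abcb1a (-1.45 ± 0.34) and Slco1a4 (-1.63 ± 0.39) were called lower (limma adjusted p = 0.0147, 0.0241 and 0.0267). In that comparison 0.713% of all genes were called lower. The calls of these 3 genes were lost without Pax3 replicate 3 and without Apob replicate 3. Cyp2b10 also lost its call without Apob replicate 2 and with the compared arrays alone, Abcb1a without Pax3 replicate 1 or 2 or Apob replicate 1, and Slco1a4 without Pax3 replicate 1, 2 or 4 or Apob replicate 2 and with median centring. In ct and in Lp-Het livers 7 of the 9 targets also had negative differences, with medians of -0.51 and -0.16. Of the 9, 3 had an unadjusted p below 0.05 in ct livers, against 24.1% of all genes. There 3.4% of all genes were called higher. The 1 called in ct livers was Cyp3a13, higher by 2.18 ± 0.25 (limma adjusted p = 2.22e-07), and it was called in all 20 alternative fits.

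Markers of other cell types in Apob livers were read beside Sult2a2 and Sult3a1. The summed signal of 6 hepatocyte markers was 204317 to 244540 in Apob livers and 229221 to 260532 in B6 livers. That of 7 Kupffer cell markers was 17910 to 20909 in Apob and 15928 to 22858 in B6 livers. In Apob minus B6, 0 of the markers of either list were called after limma. At an unadjusted p below 0.05 there were 1 hepatocyte and 0 Kupffer cell markers, against 10.9% of all genes. The summed signal of 5 stellate cell markers was 10746 to 15014 in Apob and 8421 to 10643 in B6 livers, without overlap and with 0 called after limma (1 at an unadjusted p below 0.05). In Apob minus Pax3 the 1 erythroid marker tested, Alas2, was called higher (1.28 ± 0.28, limma adjusted p = 0.0147), against 0.463% of all genes. The GAPDH 3'/5' ratio was 0.729 to 0.789 in Apob and 0.765 to 0.903 in B6 livers, and the pyruvate carboxylase ratios did not overlap (2.99 to 5.21 in Apob and 5.99 to 26.6 in B6 livers). The part of the stellate markers and of this ratio in the Sult2a2 and Sult3a1 differences was not tested.

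**Figure D5:**
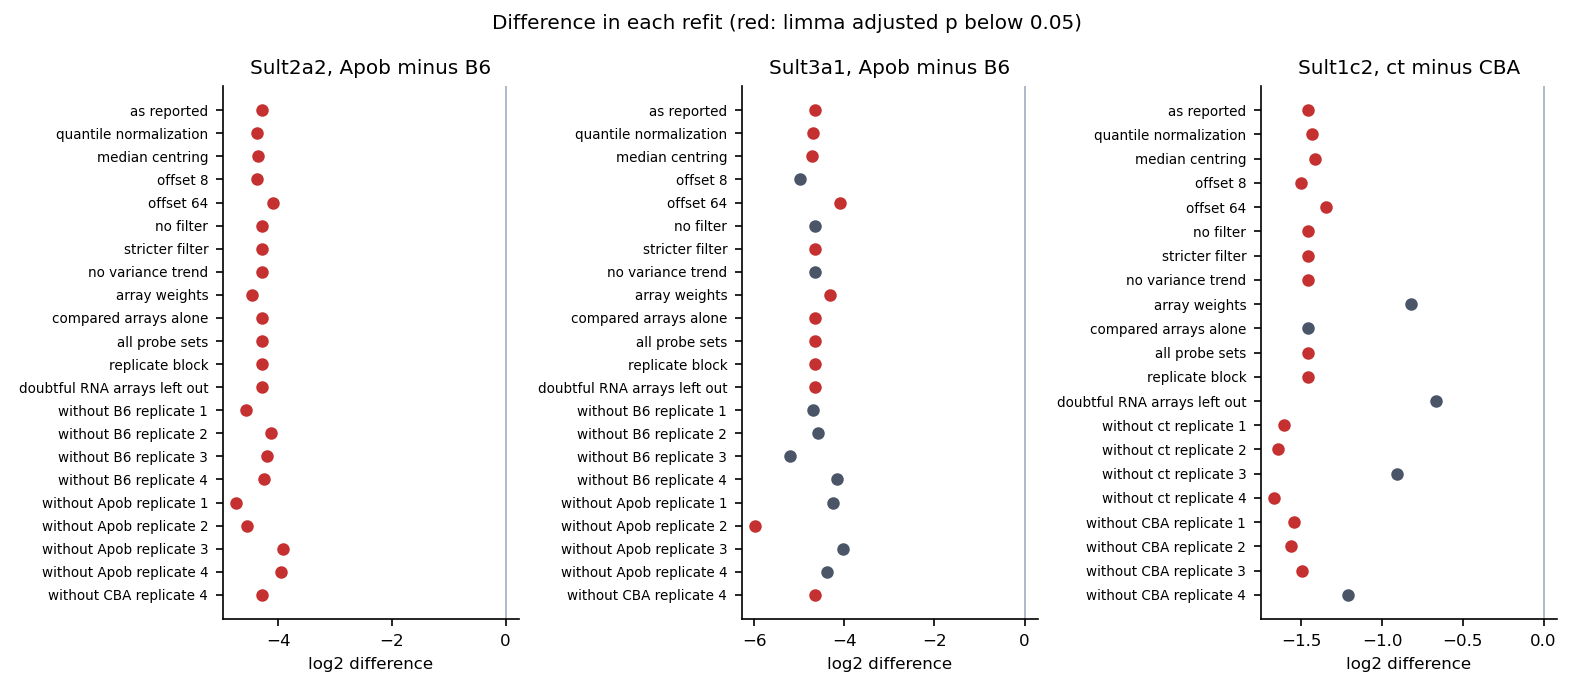
Log2 difference (mutant minus control) of the 3 called members in each refit of the data, 1 point per setting, with red for a limma adjusted p below 0.05 and dark grey otherwise. Sult2a2 is red throughout, Sult3a1 loses its call in 10 of 21 refits, 7 of which leave out a B6 or Apob mouse, and Sult1c2 loses it in 5 of 20, among them those without ct replicate 3 or CBA replicate 4.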

How the data were processed

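Per the labels' protocols, liver was kept in RNAlater, total RNA was isolated on RNeasy columns with DNase, and biotinylated cRNA was hybridised to the arrays. The deposited unit is signal intensity, which the authors computed with MAS5 per the submitters' processing notes (version not stated). As computed from the values, each array had a mean of 500 after 2% of probe sets at each end were left out. No scan dates or detection calls were used here. Of 45101 probe sets, 64 array controls were left out and 34945 had 1 gene symbol. Values were log2(signal + 23.1), the offset being the 20th percentile. Probe sets above the 40th percentile of mean log2 value were tested, and the brightest stood for its gene (13188 of 18193 genes). One mean per group was estimated from all 36 arrays (limma 3.58.1, R 4.3.3), with variances moderated along a trend and two-sided tests, with Benjamini-Hochberg adjustment over all genes. The number of arrays limits the precision.

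The members and gene lists were chosen with earlier results of these data known. Text names all members, up to 4 called genes per list, and the 3 genes most correlated with each member. Bpnt1, Bpnt2, Papss2, Aldh1a1, Cyp3a16, Cyp2b13, and Cyp3a13 and Sult2a8 in comparisons with no call, were chosen after their values were seen. So was the per-array look at replicate 3. Tested on simulated data for Apob minus B6 (13188 genes), the fit called 48% of 2-fold and 95% of 4-fold changes, with 3 false calls. The labels set each mutant number beside the same control number. Deviations of same-numbered arrays correlated at over 0.1 for every pair in no comparison, so no replicate block was used. In ct minus CBA the correlations of replicates 1 to 4 were 0.20, 0.20, -0.02 and 0.11. The replicate block among the alternatives is a replicate number shared by all 9 groups, so it does not model pairs within a line. Alternatives were other scalings, offsets 8 and 64, other filters, no variance trend, array weights, compared arrays alone, all probe sets, a replicate block, and arrays left out. Tables and figures were made in Python 3.11.15 with pandas 2.3.3 and matplotlib 3.10.9.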

Additional observations from a re-analysis of the deposited data

Results flagged for a closer look

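Single arrays lay far from the other 3 of their group for 6 of 81 combinations of a probe set and a group, where chance gives about 1 in 20. For Sult1a1, Cd-WT replicate 1 was the highest of its group at 29901. For Sult1b1, Lp-WT replicate 1 was the highest at 1479. For Sult1c2, Cd-WT replicate 2 was the highest at 1319 and ct replicate 3 the lowest at 114. For Sult1d1, ct replicate 3 was the lowest at 7851 on one probe set, and CBA replicate 4 was the highest at 10615.5 on the other. Of these 6 values, 3 came from ct replicate 3 or CBA replicate 4, the arrays with raised 3'/5' ratios.

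The mutant minus control difference of Sult2a2 varied between lines. Sult2a2 passed the direct test of Apob minus Pax3 (limma adjusted p = 0.000256, -4.90 on the log2 scale, lower in 4 of 4 Apob mice than in any Pax3 mouse). It also passed the test of differences among the 5 lines (limma adjusted p = 0.000281), in which the Apob and Pax3 differences share the B6 mice.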

How the results depend on the processing

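Sult2a2 in Apob minus B6 and in Apob minus Pax3 kept its direction and call in all 21 alternatives. In Apob minus B6 the number of members called was 1 with an offset of 8, with no filter and with no variance trend, 3 with array weights (Sult1d1 in addition), and 1 to 2 when single arrays were left out. In ct minus CBA it was 0 with array weights, with the compared arrays alone and with both arrays of raised 3'/5' ratio left out, and 0 to 1 when single arrays were left out. In Apob minus Pax3 it was 2 with array weights and without those arrays. Among the 5 mutant minus control differences it was 2 with array weights and 1 to 2 when single arrays were left out. Sult3a1 was called there without Pax3 replicate 3 or Apob replicate 2. Among the 4 controls it was 1 with an offset of 8 or with no filter, and 0 to 2 when single arrays were left out. Lp-Het minus Lp-WT changed sign for Sult2a2 without Lp-Het replicate 1 (-0.29) or 3 (-0.23) or Lp-WT replicate 3 (-0.32), and for Sult3a1 without Lp-Het replicate 1 (0.30) or Lp-WT replicate 1 (0.18), with no call. With single arrays left out these differences ran from -0.32 to 1.45 for Sult2a2 and from -0.66 to 0.30 for Sult3a1. Except for the changes named, causes were not tested. With the replicate block the members called were 2 in Apob minus B6, 1 in ct minus CBA and 1 in Apob minus Pax3, and the block changed no call of a member. Among the list genes refitted, cell type markers not included, the block ended 1 call, that of Slco1a4 in Apob minus B6 (adjusted p = 0.0600). Over all genes, 71 calls in Apob minus B6 became 726 with array weights, 324 without the 2 doubtful arrays, 205 over all probe sets, 184 with the compared arrays alone and 40 with median centring. In ct minus CBA, 877 became 236 without those arrays and 38 with the compared arrays alone. In Apob minus Pax3, 155 became 741, 486 and 374 with array weights, without those arrays and over all probe sets. In Lp-Het minus Lp-WT, 4 became 151 with array weights, 28 without those arrays and 11 with quantile normalization, and in Pax3 minus B6, 0 became 18 with array weights. Calls among the 5 mutant minus control differences went to 1476 with array weights and 215 with median centring (325 as reported). Among the controls they went to 3944 with array weights (1417 as reported). With single arrays left out the calls ran from 24 to 211 in Apob minus B6, 64 to 348 in Apob minus Pax3, 363 to 1438 in ct minus CBA and 0 to 20 in Lp-Het minus Lp-WT.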
